A study of Mus musculus with 4 samples.

Results

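The regulators followed here were grouped as genes of the step from oligodendrocyte precursor to myelinating cell: Myrf, Zfp488, Zeb2, Smad7, Tcf7l2, St18 and Zfp536. They were taken by symbol, with earlier results of these data known, so that they fell together is no independent finding. All 7 symbols were found among the 6940 genes of the authors' deposited table, each as 1 gene. The labels give the RNA as that of oligodendrocytes from the cortex of C57BL/6 mouse pups at postnatal day 5. Astrocyte RNA was abundant in all 4 libraries: per kilobase of exon, the astrocyte gene Gfap averaged 131677 normalised reads in cKO and 83404 in Ctrl, whereas the myelin gene Mbp averaged 1954 in cKO and 14795 in Ctrl. Cells were enriched by panning on antibodies to GalC and then O4, which are lipid antigens of the oligodendrocyte lineage. After 6 days of growth, differentiation was started with triiodothyronine, a thyroid hormone, at 40 ng/mL, and RNA was taken 24 h later. The 2 conditional knockout (cKO) libraries have the genotype Olig1cre/+;Zdhhc5fl/fl, and the 2 control (Ctrl) libraries have Zdhhc5fl/fl, so both groups carry the floxed alleles of Zdhhc5, an enzyme that attaches palmitate to proteins. Cre sits in 1 copy of the Olig1 locus and is active in the oligodendrocyte lineage, and Cre and the changed Olig1 locus cannot be told apart from the loss of Zdhhc5. Zdhhc5 was not analysed here, so the genotype labels stand unchecked by the gene they name. No label says whether the libraries of a group came from separate animals or cultures, and p-values measure the spread between these libraries, which may be technical.

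Oligodendrocyte precursors stop dividing and turn on myelin genes under a small set of regulators. Myrf is the transcription factor that newly formed oligodendrocytes need to switch on and keep on myelin genes. Zeb2 acts upstream of Smad7, an inhibitory SMAD, and together they release the cell from bone morphogenetic protein (BMP) signals, which hold precursors back. Tcf7l2 is the partner of beta-catenin in Wnt signalling and is present for a short time as oligodendrocytes form. Zfp488 is a zinc finger partner of Olig2 that favours differentiation. St18 is a zinc finger factor of the Myt1 family, and Zfp536 is a zinc finger repressor known for holding back neuronal differentiation.

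Values are normalised reads, as deposited, in which each library's counts had been divided by its own size factor. Every listed gene had an adjusted p-value under 0.05 in the authors' deposited table, the largest being 0.0499. Those genes were 40.0% of the 17347 genes that lay behind the authors' adjustment, and the genes lower in cKO were 21.3%. The calls below repeat a selection that the table had already made on the same libraries, and they are not independent of it. Whole reads could be recovered from the values, and the listed genes held 20068016 and 13672254 reads in the cKO libraries and 17077509 and 16773675 in the Ctrl libraries. The median log2 fold change of all listed genes was -0.22. It moved by 0.19 with relative log expression (RLE) scaling over the listed genes, by 0.28 once a smooth trend of log2 values on GC content was taken out of each library, and by 0.27 once trends on GC content and on length were. After the GC step 56.9% of called genes were higher in cKO, against 46.7% without that step.

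All 7 regulators fell in the cKO cells, to between 21.2% and 48.1% of the Ctrl mean. Each passed the test (limma on log2(value + 1), Benjamini-Hochberg adjusted p under 0.05), where 53.3% of listed genes were called lower. In each of the 7, both cKO libraries lay below both Ctrl libraries, as they did in 53.3% of listed genes. Limma called 100% of listed genes in 1 direction or the other. All 7 means were at least 2-fold lower as deposited, a size reached by 11.8% of listed genes. That count did not hold under other scalings, since Zeb2 had a log2 fold change of -0.87 with RLE scaling and -0.99 with trimmed mean (TMM) scaling. After the GC step Zeb2 stood at -0.37 and Tcf7l2 at -0.97, and with the GC and length trends removed Tcf7l2 stood at -0.89 and Zeb2 no longer passed (-0.09, limma adjusted p 0.105). Their median log2 fold change was -1.78. In the authors' deposited table, log2 fold changes of the 7 ran from -2.25 for St18 to -1.05 for Zeb2. An exact permutation test of 2 against 2 libraries cannot go below p = 0.333, so the tests rest on the variance that limma pools over genes. In bulk RNA, fewer cells of a type and less RNA per cell cannot be told apart.

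**Figure D1:**
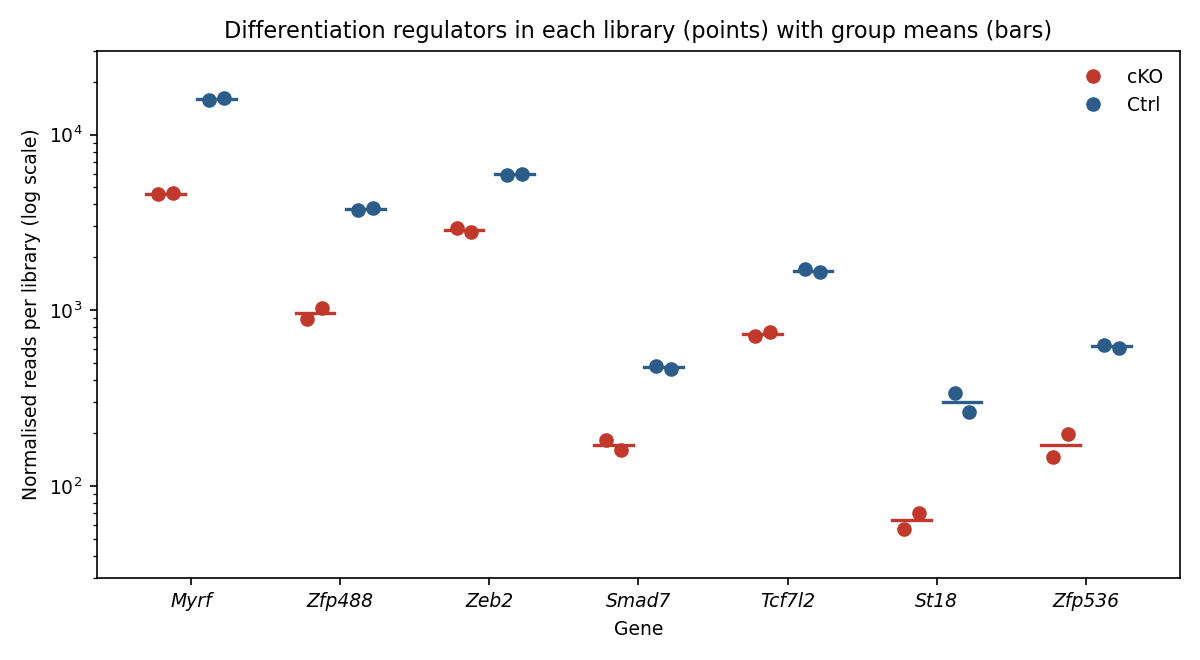
Normalised reads of the 7 regulators (log axis) in the 2 cKO libraries (red, left) and the 2 Ctrl libraries (blue, right), with the group mean as a bar. For every gene the cKO points lie below the Ctrl points, the closest pair of groups being that of Zeb2 at 2941 in cKO 1 and 5887 in Ctrl 1.

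The promoters of 4 of the 7 genes (Zfp488, Zeb2, Tcf7l2 and Zfp536) were taken from the RefSeq table of GRCm38.p6. They cover 8 windows that run from 250 bases before a start site to 50 after it. They are shown because these genes fell together, and 1 window is given for each gene. For Zeb2 and Tcf7l2, which have several windows, the window printed is the one with a match, and it lies inside the annotated gene. The windows at the outer ends of these genes are not printed and held no match. They are chr2:45117393-45117692 for Zeb2 and chr19:55741560-55741859 for Tcf7l2. Each window was searched on both strands for CAGGTG (the E-box bound by ZEB proteins), CTTTGA (the core of TCF/LEF sites), ACAAAG (a core of SOX sites) and the SMAD palindrome GTCTAGAC. No searched motif overlaps another in these windows. Capitals mark a match, and sequences run 5′ to 3′ on the strand of the gene.
Zfp488, chr14:33978715-33979014, minus strand: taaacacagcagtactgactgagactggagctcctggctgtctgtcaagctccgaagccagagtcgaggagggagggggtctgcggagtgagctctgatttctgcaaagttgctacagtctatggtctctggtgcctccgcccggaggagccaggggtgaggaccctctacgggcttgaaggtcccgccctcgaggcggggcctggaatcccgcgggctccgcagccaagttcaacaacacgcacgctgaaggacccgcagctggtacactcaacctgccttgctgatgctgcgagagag
Zeb2, chr2:45110228-45110527, minus strand: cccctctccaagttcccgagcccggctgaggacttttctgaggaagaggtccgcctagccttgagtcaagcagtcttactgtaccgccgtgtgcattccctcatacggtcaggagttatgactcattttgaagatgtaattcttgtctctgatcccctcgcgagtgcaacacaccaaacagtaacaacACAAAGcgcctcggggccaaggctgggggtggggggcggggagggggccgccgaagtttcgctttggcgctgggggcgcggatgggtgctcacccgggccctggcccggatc
Tcf7l2, chr19:55895071-55895370, plus strand: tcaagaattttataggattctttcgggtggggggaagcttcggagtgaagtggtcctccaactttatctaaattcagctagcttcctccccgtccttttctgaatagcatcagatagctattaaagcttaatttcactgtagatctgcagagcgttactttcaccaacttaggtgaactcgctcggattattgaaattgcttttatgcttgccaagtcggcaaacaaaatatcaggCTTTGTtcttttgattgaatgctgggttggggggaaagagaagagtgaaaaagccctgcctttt
Zfp536, chr7:37769703-37770002, minus strand: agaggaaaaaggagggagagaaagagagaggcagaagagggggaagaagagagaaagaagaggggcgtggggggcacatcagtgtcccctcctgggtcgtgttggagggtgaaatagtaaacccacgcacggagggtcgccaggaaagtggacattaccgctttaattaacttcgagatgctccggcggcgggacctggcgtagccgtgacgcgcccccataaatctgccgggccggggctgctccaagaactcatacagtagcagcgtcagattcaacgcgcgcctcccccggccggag

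The SOX core was found in 1 of the 4 Zeb2 windows, 62 bases before the start site, and in 1 of the 2 Tcf7l2 windows, on the opposite strand, 14 bases before it. Both matches are in the windows printed. The Zeb2 windows chr2:45113204-45113503 and chr2:45113230-45113529 share most of their bases, so the 8 windows are not all separate. In comparison, 18.7% of the 32851 promoter windows of the table hold ACAAAG or its reverse complement. The letters of the other 3 motifs were not in the 8 windows. Of all windows of the table, 20.2% hold the ZEB E-box, 16.0% the TCF/LEF core and 0.213% the SMAD palindrome. Promoters of Myrf, Smad7 and St18 were not searched, so the absence of the SMAD palindrome says nothing of Smad7.

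Myrf, the myelin regulatory factor, was the most abundant of the 7 per kilobase of exon. It had 4612 and 4621 normalised reads in the cKO libraries, against 15667 and 16102 in the Ctrl libraries. The groups were far apart, while the cKO libraries were nearly equal and the Ctrl libraries differed 1.03-fold. The mean was 4616 ± 6.37 in cKO and 15884 ± 307 in Ctrl (SD, n = 2 each), 3.44-fold lower in cKO. The log2 fold change was -1.78 (SE 0.03, 95% interval -1.85 to -1.71, limma adjusted p 1.14e-22). Myrf (ENSMUSG00000036098) lies on the minus strand of chromosome 19, from 10208272 to 10240748 of GRCm38. Among the reads of all 7 genes together, Myrf held 48.3% and 48.1% in the cKO libraries, against 55.1% and 55.7% in the Ctrl libraries.

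Myelin genes, the class that Myrf is known to switch on, had 20 of 24 members in the table. Of these 18 fell and 2 rose, where 53.3% of all listed genes were called lower. The median log2 fold change of the myelin genes was -2.25 beside -0.22 over all listed genes. Mbp, which encodes myelin basic protein, averaged 16415 ± 443 in cKO and 124326 ± 6.29 in Ctrl (log2 fold change -2.92). Mag, which encodes a myelin glycoprotein that faces the axon, had a log2 fold change of -2.53. The deepest fall of the list was that of Mobp, a basic protein of compact myelin, which averaged 78.3 ± 0.0485 in cKO and 1350.0 ± 18.5 in Ctrl (log2 fold change -4.09). Cntn2, an adhesion protein also made by neurons, rose (log2 fold change 0.88). Gamt, an enzyme of creatine synthesis, rose as well (0.33), but stood at 0.01 with the GC trend removed and at -0.14 with the GC and length trends removed.

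Zeb2 encodes a zinc finger and homeodomain protein that binds E-boxes and is a partner of SMADs. It had 2941 and 2774 normalised reads in the cKO libraries, against 5887 and 5996 in the Ctrl libraries. Even the nearest libraries of the groups differed 2.00-fold. The mean was 2858 ± 118 in cKO and 5941 ± 76.9 in Ctrl, 2.08-fold lower in cKO. This was the smallest fall of the 7 (log2 fold change -1.06, SE 0.04, 95% interval -1.14 to -0.97, limma adjusted p 1.06e-16). It is also the fall that depended most on the analysis. It was -0.37 on the log2 scale after the GC step (limma adjusted p 5.03e-07), and -0.09 with the GC and length trends removed (limma adjusted p 0.105), where it no longer passed. The longest transcript of Zeb2 has a GC content of 40.6%, the lowest of the 7, and its exons span 19942 bases, the most of the 7. Zeb2 (ENSMUSG00000026872) lies on the minus strand of chromosome 2, from 44983632 to 45117395, and its exons share 653 bases with the antisense gene Zeb2os. The strand setting of the counting is not given in the sources used here, so reads of the overlap cannot be assigned to one of these genes. Zeb2 is also expressed by microglia and young neurons.

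**Figure D2:**
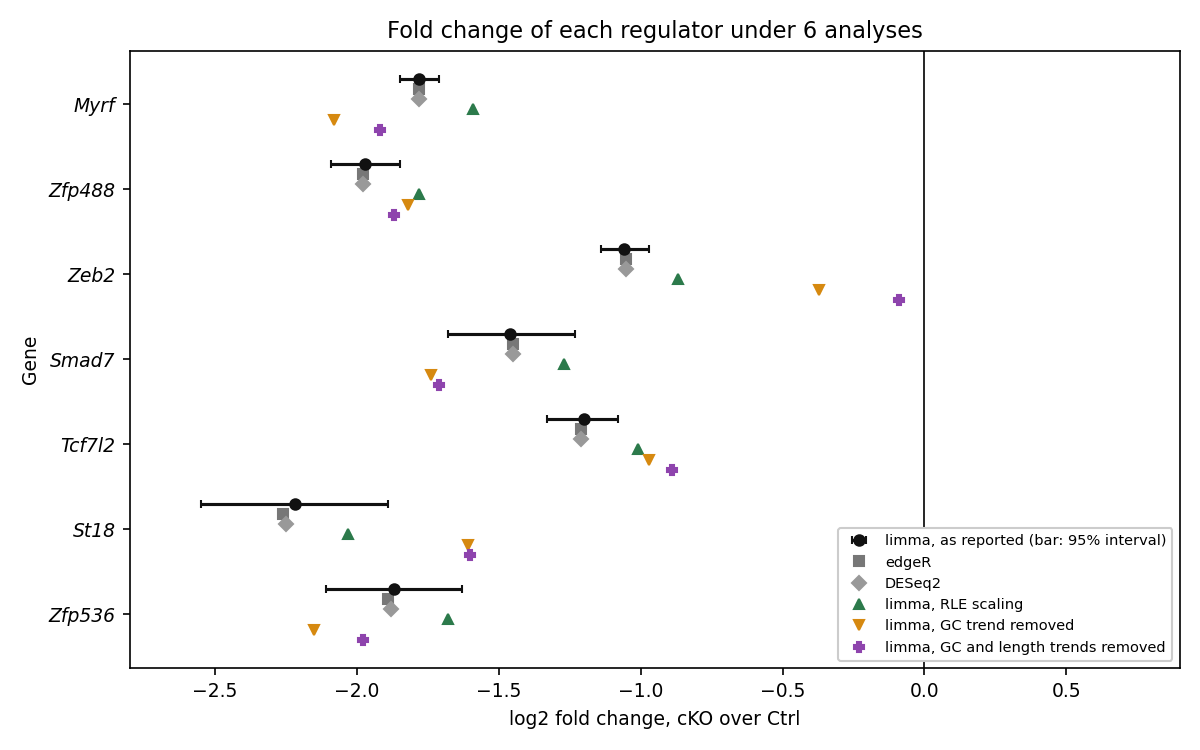
Log2 fold change of each regulator, cKO over Ctrl, under limma as reported (black, with its 95% interval) and 5 other analyses. All values lie below 0, and Zeb2 lies at -1.06 as reported, at -0.37 with the GC trend removed and at -0.09 with the GC and length trends removed.

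Smad7 encodes the inhibitory SMAD that recruits the ubiquitin ligases Smurf1 and Smurf2 to BMP and TGF-beta receptors. It had 184 and 160.2 normalised reads in the cKO libraries, against 483 and 463 in the Ctrl libraries. The groups did not overlap, and the libraries within a group differed by at most 1.15-fold. The mean was 172 ± 16.6 in cKO and 473 ± 14 in Ctrl, 2.75-fold lower in cKO (log2 fold change -1.46, SE 0.11, 95% interval -1.68 to -1.23, limma adjusted p 3.61e-11). These values rest on 225 and 135 recovered reads in the cKO libraries and on 483 and 455 in the Ctrl libraries. Smad7 (ENSMUSG00000025880) lies on the plus strand of chromosome 18, from 75367529 to 75395935.

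The BMP and TGF-beta genes around Zeb2 and Smad7 were split in direction, as were all listed genes, of which 53.3% were called lower. The counts below for SMADs, for genes that hold back differentiation and for Wnt genes stand beside the same share. Of 21 ligands and receptors 13 were in the table, where 6 rose and 7 fell, their median log2 fold change being -0.55. With the GC trend removed 5 were higher and 4 lower, and the median turned to 0.05. That step gave 2821 higher and 2136 lower among all 6940 listed genes, with a median of 0.07. With the GC and length trends removed the median of the 13 was 0.08, against 0.05 over all listed genes. The receptor genes Bmpr1a, Bmpr2 and Acvr2a then turned direction, to 0.08, 0.17 and 0.02 against -0.55, -0.73 and -0.68 as reported. Bmp4, a BMP ligand that blocks oligodendrocyte differentiation when supplied to precursors, had 493 and 484 normalised reads in the cKO libraries, against 1114 and 1116 in the Ctrl libraries (log2 fold change -1.19, SE 0.07, limma adjusted p 3.5e-13). Libraries of a group were close to each other, and the groups were well apart. Tgfbr1, a type I receptor of TGF-beta, fell further (log2 fold change -1.27), and its value was -0.61 with the GC trend removed. In the other direction, Bmp6, another BMP ligand, averaged 521 ± 28.1 in cKO and 185 ± 11.2 in Ctrl (log2 fold change 1.49), and Eng, a co-receptor found on endothelial cells, averaged 215 ± 2.86 in cKO and 65.1 ± 1.54 in Ctrl (1.71).

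SMADs and inhibitors of these pathways, without Smad7, had 14 of 21 members in the table, where 8 rose and 6 fell, their median log2 fold change being 0.23. Smurf1, the ubiquitin ligase that works with Smad7, averaged 2029 ± 125 in cKO and 3717 ± 121 in Ctrl (log2 fold change -0.87), and Skil, a repressor of SMAD-driven transcription, fell as well (-1.07, and -0.42 after the GC step). Fstl1, a secreted binder of BMP ligands, averaged 7728 ± 95 in cKO and 3906 ± 18.2 in Ctrl (log2 fold change 0.98). Bambi, a decoy receptor without a kinase, had a log2 fold change of 0.87. The paralog Smad6 was not among the listed genes.

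Genes known to hold back differentiation had 7 of 14 members in the table, where 3 rose and 4 fell. With the GC trend removed 1 was higher and 3 were lower, against 2821 higher and 2136 lower among all 6940 listed genes. Id1 and Id3, inhibitors of basic helix-loop-helix factors and common targets of BMP signals, rose slightly, with log2 fold changes of 0.30 and 0.33, but their values were 0.06 and 0.07 with the GC trend removed and -0.11 and -0.07 with the GC and length trends removed. Hey1, a repressor downstream of Notch, rose (0.37). Sox6 and Sox4, factors of precursors, fell (-0.75 and -0.68). Sox6 stood at -0.44 with the GC trend removed and at -0.24 with the GC and length trends removed, and Sox4 at -0.74 and -0.73. Id2, Id4 and Hes5 were not among the listed genes.

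Tcf7l2 had 713 and 748 normalised reads in the cKO libraries, against 1726 and 1641 in the Ctrl libraries. Each pair of libraries differed 1.05-fold, and the groups did not overlap. The mean was 730.2 ± 24.6 in cKO and 1684 ± 60.0 in Ctrl, 2.31-fold lower in cKO (log2 fold change -1.20, SE 0.06, 95% interval -1.33 to -1.08, limma adjusted p 1.96e-14). Tcf7l2 (ENSMUSG00000024985) lies on the plus strand of chromosome 19, from 55741810 to 55933654. Astrocytes and endothelial cells can express it as well. Its paralog Tcf7l1 had a log2 fold change of -0.32, but did not pass with RLE scaling (-0.13, limma adjusted p 0.122) and stood at -0.64 after the GC step. Tcf7 and Lef1, the other members of this family, were not among the listed genes.

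Wnt ligands, receptors and beta-catenin had 14 of 19 members in the table, where 8 rose and 6 fell, their median log2 fold change being 0.22. The ligands Wnt7a and Wnt7b rose, Wnt7a averaging 3916 ± 188 in cKO and 2230.0 ± 8.34 in Ctrl and Wnt7b 4975 ± 236 in cKO and 2574 ± 39.8 in Ctrl. Adgra2 and Reck form the co-receptor for these ligands, and they moved apart, with log2 fold changes of 1.14 and -0.73. Ctnnb1, which encodes beta-catenin, had a small rise (0.12). Fzd3, a Wnt receptor, fell (-0.90), but stood at -0.06 with the GC and length trends removed. Among targets and inhibitors 9 of 22 were in the table, where 5 rose and 4 fell, with a median of 0.20. Apcdd1, a membrane inhibitor, rose (0.58), as did Daam2, a modulator of Wnt receptor complexes (0.54). Gsk3b, a kinase that marks beta-catenin for destruction, fell (-0.48, and -0.07 with the GC and length trends removed), and Apc, a scaffold of the beta-catenin destruction complex, fell (-0.76, and -0.11 with the GC and length trends removed). Axin2, the usual readout of Wnt signalling, was not among the listed genes.

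The 3 remaining regulators, Zfp488, Zfp536 and St18, had the 3 largest falls as reported, an order that did not hold after the GC step, where Zfp536 (-2.15) and Myrf (-2.08) came before Zfp488 (-1.82), Smad7 (-1.74) and St18 (-1.61). Zfp488 had 892 and 1032 normalised reads in the cKO libraries, against 3710 and 3829 in the Ctrl libraries. The Ctrl libraries were close together, and those of cKO differed 1.16-fold, far less than the groups did. The mean was 962 ± 99.5 in cKO and 3770 ± 84.3 in Ctrl, 3.92-fold lower in cKO (log2 fold change -1.97, SE 0.06, 95% interval -2.09 to -1.85, limma adjusted p 5.01e-19). Zfp488 (ENSMUSG00000044519) lies on the minus strand of chromosome 14, from 33967070 to 33978764, and is annotated with 1 transcript.

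Zfp536 had 147 and 197 normalised reads in the cKO libraries, against 636 and 613 in the Ctrl libraries. The cKO libraries differed 1.34-fold, the widest gap within a group among the 7 genes, and still lay far below both Ctrl libraries. The mean was 172 ± 35.4 in cKO and 624 ± 16.3 in Ctrl, 3.63-fold lower in cKO (log2 fold change -1.87, SE 0.12, 95% interval -2.11 to -1.63, limma adjusted p 1.19e-12). Zfp536 (ENSMUSG00000043456) lies on the minus strand of chromosome 7, from 37472135 to 37773641.

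St18, the least abundant per kilobase of exon, had 57.2 and 70.0 normalised reads in the cKO libraries, against 336 and 265 in the Ctrl libraries. Here the Ctrl libraries differed 1.27-fold and the cKO libraries 1.22-fold, and the groups stayed apart. The mean was 63.6 ± 9.09 in cKO and 300.4 ± 50.4 in Ctrl, 4.72-fold lower in cKO (log2 fold change -2.22, SE 0.16, 95% interval -2.55 to -1.89, limma adjusted p 2.03e-11). These values rest on 70 and 59 recovered reads in the cKO libraries and on 336 and 260 in the Ctrl libraries, the fewest of the 7. This was the largest fall of the 7 as reported, but not after the GC step (-1.61) or with the GC and length trends removed (-1.60), where 4 of the other regulators fell further. St18 (ENSMUSG00000033740) lies on the plus strand of chromosome 1, from 6487231 to 6860940. Its paralog Myt1, also a factor of the oligodendrocyte lineage, averaged 1519 ± 40.5 in cKO and 3260.0 ± 84.9 in Ctrl (log2 fold change -1.10), whereas Myt1l, the member of the family found in neurons, rose (0.42).

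Per kilobase of exon, the order of the levels was the same in both groups, from Myrf through Zfp488, Zeb2, Tcf7l2, Smad7 and Zfp536 to St18. Myrf averaged 539 ± 0.745 normalised reads per kb in cKO and 1855 ± 35.9 in Ctrl, and Zfp488 224 ± 23.1 in cKO and 876 ± 19.6 in Ctrl. Neighbours in this order did not overlap between libraries in either group. At the low end, Zfp536 averaged 18.7 ± 3.84 per kb in cKO and 67.7 ± 1.77 in Ctrl, and St18 9.84 ± 1.41 in cKO and 46.5 ± 7.80 in Ctrl.

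The table assigns a transcription factor family to 487 listed genes, of which 150 were higher and 337 lower in cKO, their median log2 fold change being -0.47. Of these, 16.6% were at least 2-fold lower. Among all listed genes 53.3% were called lower, and 11.8% were at least 2-fold lower. From the deepest fall upward among the 487, St18 ranked 6, Zfp488 9, Zfp536 12, Myrf 16, Smad7 28, Tcf7l2 48 and Zeb2 65. The C2H2 zinc finger family, to which Zfp488, Zeb2 and Zfp536 belong, was mostly lower, with 173 of 203 listed genes called lower and a median of -0.72. Zfp488 ranked 3 and Zfp536 4 in this family, while Zeb2 ranked 39. These counts, medians and ranks are as deposited, and none was taken after the GC step.

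**Figure D3:**
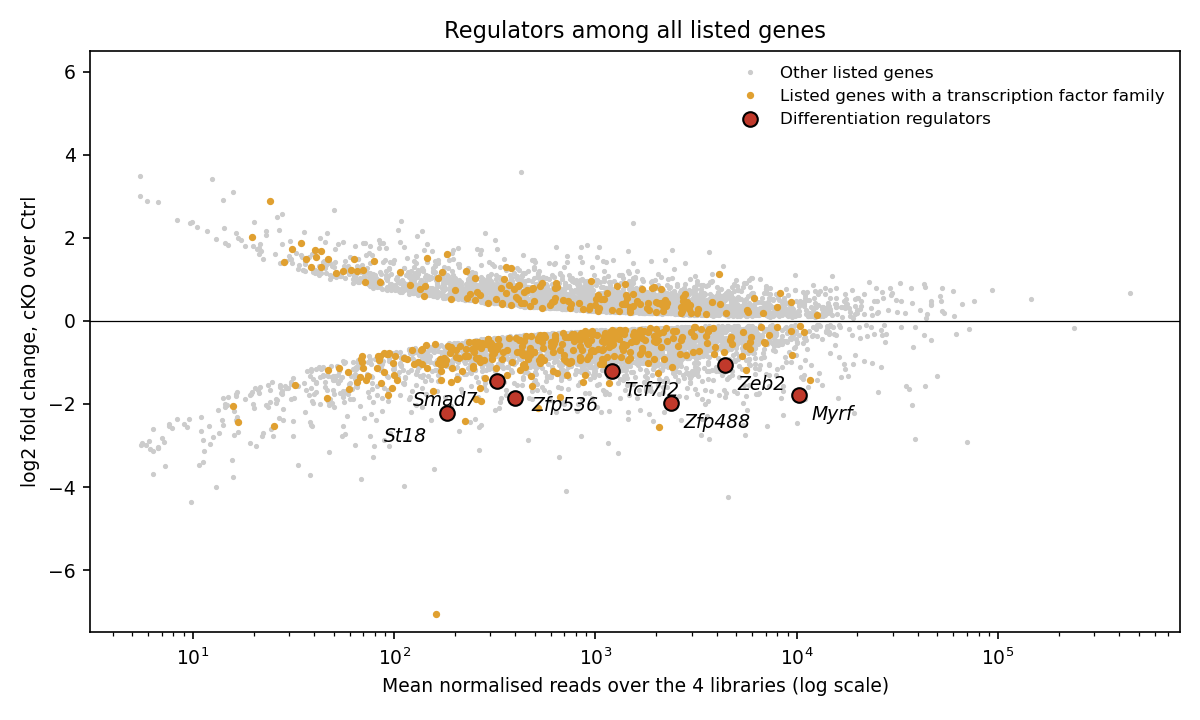
Log2 fold change, cKO over Ctrl, against the mean normalised reads over the 4 libraries (log axis) for all 6940 listed genes, with genes that have a transcription factor family in yellow and the 7 regulators in red. The empty band around 0 is there because the table lists only genes that the authors called, and the 7 regulators lie between -1.06 for Zeb2 and -2.22 for St18.

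Other transcription and chromatin factors of the lineage had 18 of 22 members in the table, where 16 fell and 2 rose, their median log2 fold change being -0.55. Among all listed genes 53.3% were called lower, with a median of -0.22. With the GC trend removed 13 of these factors were lower and 3 higher, against 2136 lower and 2821 higher among all 6940 listed genes. With the GC and length trends removed 12 were lower and 4 higher, against 2156 and 2834 among all listed genes. Tcf4 and Tcf12, partners of basic helix-loop-helix factors, turned direction, to 0.54 and 0.26 with the GC and length trends removed against -0.52 and -0.38 as reported. Sox10, which acts with Myrf on myelin genes, averaged 6326 ± 236 in cKO and 16985 ± 11.2 in Ctrl (log2 fold change -1.43). Sirt2, a deacetylase abundant in myelin, and Nkx6-2, a homeobox factor of maturing oligodendrocytes, had the deepest falls of the list (-1.56 and -1.49). Olig1 and Olig2, which specify the lineage, had smaller falls (-0.81 and -0.52), and the cKO cells carry Cre in 1 copy of the Olig1 locus. The deacetylase gene Hdac3 rose (0.17). Among paralogs of the 7 genes, 6 of 10 were in the table, where 2 rose and 4 fell, and Zeb1, the paralog of Zeb2, had a small fall (-0.18) that turned to 0.01 with RLE scaling and to 0.13 with the GC trend removed. The other paralogs were Zfp462, which fell (-0.86), and Zfp219, which rose (0.24, and -0.11 after the GC step).

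**Figure D4:**
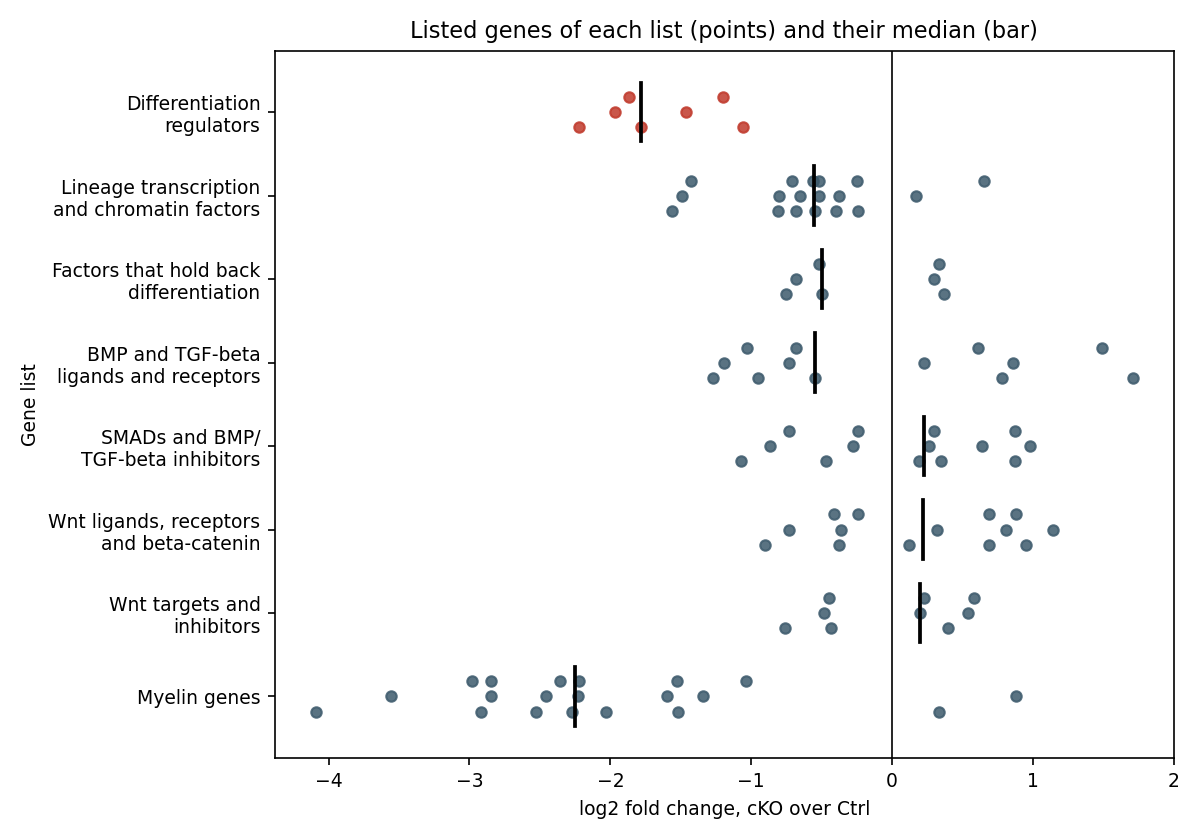
Log2 fold change, cKO over Ctrl, of the listed genes of each list (points) with the list's median (bar). The 7 regulators have a median of -1.78, the myelin genes of -2.25, and the BMP, TGF-beta and Wnt lists have genes on both sides of 0.

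Genes whose values followed those of a regulator were found by the root mean square difference of centred log2 values over the 4 libraries, among genes with a mean within 2-fold of its own. With 2 groups of 2 libraries this measure reflects little more than the size of the fold change. Closest to Myrf were Aatk (0.022), Secisbp2l (0.028) and Plxnb3 (0.029), and 9 of 576 candidates lay within 0.1. For Zfp488 they were Strn (0.027), Il1rap (0.069) and Rnf122 (0.073). For Zeb2 they were Gipc1 (0.014), Hipk2 (0.016) and Pank3 (0.020), and 91 of 1593 candidates lay within 0.1. Smad7 was closest to Pak7 (0.030), Slc22a21 (0.043) and Gria4 (0.045), and Tcf7l2 to Dennd4a (0.015), Zbtb34 (0.015) and Ss18l2 (0.023). Zfp536 was closest to Kcnq3 (0.076), Afap1l1 (0.094) and the Y-linked gene Ddx3y (0.104). For St18 no gene came within 0.1, and the closest were Fam135b (0.116), Sgk2 (0.128) and Cacnb4 (0.154).

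Markers of other cell types moved in the same libraries, and their part in the falls above was not tested. As deposited, 53.3% of all listed genes were called lower and 46.7% higher, and the marker counts stand beside these shares. The summed level of 11 of 12 astrocyte markers was 764521 to 771559 normalised reads in the cKO libraries and 511353 to 512203 in the Ctrl libraries, and 9 of the 11 rose and 2 fell. Gfap, the astrocyte filament gene, alone averaged 555415 ± 2590 in cKO and 351796 ± 446 in Ctrl. Of the 2 that fell, Aqp4 (log2 fold change -0.16) stood at 0.47 with the GC trend removed. The other, S100b, averaged 875.5 in cKO and 2705 in Ctrl (-1.63), and stood at -1.48 with the GC trend removed. For pericytes and fibroblasts, 11 of 12 markers summed to 12128 to 12521 in the cKO libraries and 3887 to 4083 in the Ctrl libraries, and all 11 rose, the collagen gene Col3a1 among them (log2 fold change 1.67). For microglia, which express Zeb2, 6 of 12 markers summed to 3896 to 4087 in the cKO libraries and 2678 to 2757 in the Ctrl libraries, and all 6 rose, the complement gene C1qb among them (0.77). For neurons, 10 of 12 markers summed to 17532 to 17749 in the cKO libraries and 18610 to 18926 in the Ctrl libraries. Of these 8 rose, such as the tubulin gene Tubb3 (0.79), and 2 fell. The 2 were Map2, averaging 7378 in cKO and 10552 in Ctrl, and Dcx, averaging 2780 in cKO and 3677 in Ctrl. Dcx had a log2 fold change of -0.40 as reported and of 0.28 with the GC trend removed. For endothelial cells, 4 of 10 markers summed to 383 to 408 in the cKO libraries and 449 to 452 in the Ctrl libraries, where 2 rose and 2 fell. The junction gene Cdh5, which rose, had 93.9 and 80.7 normalised reads in the cKO libraries, against 10 and 16.3 in the Ctrl libraries. Its Ctrl values rest on only 10 and 16 recovered reads. Emcn rose as well (log2 fold change 1.86), whereas Kdr and Vwf fell (-0.92 and -0.53). For precursors, 9 of 12 markers summed to 61734 to 63470 in the cKO libraries and 97610 to 99977 in the Ctrl libraries, where 2 rose and 7 fell, the receptor gene Pdgfra among the 7 (-0.86). Among these precursor markers 5 were called lower and 2 higher with the GC and length trends removed. The same step gave 2156 lower and 2834 higher among all 6940 listed genes. Of the 51 markers in the table, 0 had a value of 0 in any library.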

How the data were processed

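RNA-seq of 4 libraries was analysed, 2 cKO and 2 Ctrl, from 1 table. It holds a normalised signal per gene and library (counts divided by a size factor), log2 fold changes, p-values and gene lengths that the authors deposited, per the file headers; 0 columns belonged to other samples. DESeq2, mm10 and GRCm38 are named in the submitters' processing notes; the aligner, counter, strand setting and annotation are not given in the sources used here. Gene positions of 6 of the 7 regulators equalled those of GENCODE M21 (GRCm38). Within 0.01 read, 100% of values were whole multiples of 1 step per library.

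Because the values are normalised, the test was limma 3.58.1 (R 4.3.3) on log2(value + 1), with a variance trend and 2 residual degrees of freedom. A filter that asked for 2 libraries at or above 1 kept all 6940 genes. Adjustment took 17347 as the number of genes, the number that the authors' adjusted p-values imply. The variance was estimated from genes selected for their difference and may be too small. edgeR 4.0.16 and DESeq2 1.42.0 ran on the recovered reads as alternatives, where edgeR called 3244 genes higher and 3696 lower in cKO, and DESeq2 3236 higher and 3690 lower. Smooth GC and length trends were fitted per library with mgcv 1.9.3, from the longest GENCODE transcript (99.9% of genes had a GC value) and the deposited lengths. Promoters came from RefSeq GRCm38.p6.

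Named genes were the 7 regulators, the 3 genes closest to each, the 2 largest called changes in each direction of each pathway or myelin list, the paralogs, Sox10, Olig1, Olig2, Id2, Id4, Hes5, Mbp, Mag, Bmp4, Axin2 and Lef1, and 1 defining marker per cell type. Id1, Wnt7a, Ctnnb1, Bmpr1a, Bmpr2, Acvr2a, Tcf4, Tcf12, Aqp4, S100b, Emcn, Kdr, Vwf, Map2 and Dcx were named after their values were seen. Some genes that this rule takes in are not reported here. Adgra2 entered its list under the older symbol Gpr124. The members and lists were chosen with earlier results of these data known.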

Additional observations from a re-analysis of the deposited data

How the results depend on the processing

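All 7 regulators kept their direction under all 18 alternatives, and 6 of the 7 kept their call in each. The exception was Zeb2, with a log2 fold change of -0.09 and a limma adjusted p of 0.105 with the GC and length trends removed; the cause was not tested. Over the 15 alternatives without a GC step the largest adjusted p of Zeb2 was 0.000786, from limma without a variance trend. Across all alternatives log2 fold changes ran from -2.08 to -1.59 for Myrf, -2.08 to -1.78 for Zfp488, -1.74 to -1.27 for Smad7, -1.24 to -0.89 for Tcf7l2, -2.39 to -1.60 for St18 and -2.15 to -1.66 for Zfp536, with adjusted p of at most 0.00183. Leaving out each library in turn gave -2.39 to -2.05 for St18 and -2.08 to -1.66 for Zfp536, the widest such ranges; an arm left with 1 library is assumed to vary like the other. Of 504 counts over the other lists, 476 stayed within 1.5 times. Dropping the filter repeated the main fit, because the filter had kept all 6940 genes. Adjustment over the listed genes alone could only lower adjusted p-values, so neither alternative could lose a call. Lower calls over all listed genes numbered 2136 with the GC trend removed, against 3696. Replicate numbers were shared by the groups, but same-numbered libraries did not deviate together (correlation 0.01 over genes), and with the replicate block all 7 regulators were called lower, that of Zeb2 with the same log2 fold change of -1.06, and of -0.37 with the GC trend removed as well. St18 has the fewest reads, which limits its precision.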

Other observations

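Genes of the sex chromosomes differed between the groups in the same libraries. The table lists 4 Y-linked genes, and all 4 were lower in cKO. Ddx3y had 120.0 and 154 normalised reads in the cKO libraries, against 442 and 426 in the Ctrl libraries (log2 fold change -1.67, limma adjusted p 3.65e-11). Kdm5d had the smallest difference, averaging 232 ± 1.90 in cKO and 372 ± 21.1 in Ctrl (-0.67). Xist, the RNA made from the inactive X chromosome, was lower as well, averaging 2336 ± 166 in cKO and 7743 ± 40.5 in Ctrl (-1.73, limma adjusted p 2.64e-20). These genes were looked at after their values were seen.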
